A study of Mus musculus with 16 samples.

Results

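Myosin heavy chains are the motor subunits of class II myosin. Counts of 9 of their genes were read from the deposited table of 31053 genes by gene symbol: Myh3, Myh8, Myh2, Myh1, Myh4 and Myh7, which muscle uses, and Myh9, Myh10 and Myh14, which non-muscle cells also make. The 16 samples came from C2C12, a mouse myoblast line that forms multinucleated myotubes, and fall into 4 groups of 4: WT myoblasts, WT myotubes, Fam134bKO myoblasts and Fam134bKO myotubes. Cells were grown with serum and myotubes formed after confluence. Fam134b codes for a receptor that carries endoplasmic reticulum to autophagy. The knockout line was made by lentiviral delivery of Cas9 and guides against Fam134b, then drug selection. The sources used here do not state whether it is a clone or a pool, so genotype and line cannot be told apart. The labels call the 4 samples of a group biological replicates and do not say whether they were separate cultures. If they were not, p-values measure only the spread between these samples, which may be technical. The question put to the genes is which heavy chains appear when these cells differentiate, and whether the set differs between the genotypes.

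Each myosin II molecule holds a pair of heavy chains, whose heads bind actin and split ATP and whose long tails pack into filaments, together with light chains on the neck. Skeletal muscle changes its heavy chains as it matures. Embryonic Myh3 and perinatal Myh8 come first, adult fast fibres then use Myh2 (type IIa), Myh1 (type IIx) and Myh4 (type IIb), and slow fibres use Myh7, which the fetal heart ventricle of the mouse also makes. Non-muscle Myh9 (IIA), Myh10 (IIB) and Myh14 (IIC) work in cell shape, migration and cytokinesis and are made in most cell types.

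Library depth was 1484750 to 3287461 reads on genes. The shallowest were Fam134bKO myotube replicates 2 and 4, at 1790524 and 1484750. A count of 3 reads, the limit used below for a gene with no read, equalled 2.49 to 5.99 normalized counts per library, and intervals and limits cover counting error only. Fam134b itself had 162 to 332 reads in the WT libraries and 14 to 56 in the Fam134bKO libraries, and was called lower in knockout myoblasts and myotubes (log2 fold changes -2.86 and -2.46, SE 0.26 in both). Skeletal muscle markers, whose 12 measured genes include Myog, Myod1 and Actc1, summed to 1673 to 2660 normalized counts in WT myoblasts and 281.4 to 382.6 in Fam134bKO myoblasts. They reached 13711 to 21445 in WT myotubes and 6937 to 10254 in Fam134bKO myotubes. Of 11 tested, 10 were called lower in Fam134bKO myoblasts and 0 higher, beside 8.50% and 7.26% of all tested genes. Myf5, named after its value was seen, was the 1 not called (log2 fold change 0.68, limma adjusted p = 0.0955). On Fam134bKO differentiation Myf5 was called lower (-0.92). Endothelial, blood and osteoblast markers summed to at most 11.2 in any library, and cardiac markers to at most 30.7. Adipocyte markers summed to 3.56 to 6.004 in WT myoblasts and 12.5 to 26.2 in Fam134bKO myoblasts, nearly all from Pparg, with Adipoq and Plin1 at 0 in every myoblast library, and their part in the results was not tested. Smooth muscle markers, which include Des and Mylk that muscle also makes, summed to 997.2 to 1405 and 824.3 to 985.5 in those groups. Of 5 tested, 1 was called higher in Fam134bKO myoblasts (Lmod1, log2 fold change 1.97), 1 lower (Des, -1.97) and 3 neither. Over all tested genes 7.26% were called higher and 8.50% lower. In bulk RNA, fewer cells of a type and less RNA per cell cannot be told apart.

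By the GENCODE annotation of GRCm38, the build that the labels name as mm10, the embryonic, perinatal and adult fast genes lie in one direction along chromosome 11, at the plus strand. Myh3 (chr11:67078300-67102291) is followed by Myh2 (chr11:67171027-67197517), Myh1 (chr11:67200052-67224575), Myh4 (chr11:67238029-67260446) and Myh8 (chr11:67277124-67308634). Myh10 lies farther along the same chromosome at chr11:68691559-68816632. The remaining genes are on minus strands, Myh7 at chr14:54970684-54994626, Myh9 at chr15:77760587-77842175 and Myh14 at chr7:44605803-44670843. The 250 bases before the RefSeq start of each clustered gene are printed below because most of these genes rose together in the results below. RefSeq sequences of the GRCm38.p6 build were found for 9 of the 9 genes, and Myh7, outside the cluster, is shown for contrast. Capitals mark a stretch of 14 bases that Myh8, Myh2, Myh1 and Myh4 hold in common.
Myh3, chr11:67078050-67078299, plus strand: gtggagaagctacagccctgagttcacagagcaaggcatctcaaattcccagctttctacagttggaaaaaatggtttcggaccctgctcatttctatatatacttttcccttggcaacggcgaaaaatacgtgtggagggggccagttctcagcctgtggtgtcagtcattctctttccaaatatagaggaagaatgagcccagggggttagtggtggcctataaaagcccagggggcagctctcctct
Myh8, chr11:67276874-67277123, plus strand: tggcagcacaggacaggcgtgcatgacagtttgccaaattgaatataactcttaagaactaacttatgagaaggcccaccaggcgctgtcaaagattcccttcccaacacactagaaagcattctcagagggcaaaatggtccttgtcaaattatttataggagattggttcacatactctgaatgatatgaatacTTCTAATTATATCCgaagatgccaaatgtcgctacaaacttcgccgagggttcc
Myh2, chr11:67170777-67171026, plus strand: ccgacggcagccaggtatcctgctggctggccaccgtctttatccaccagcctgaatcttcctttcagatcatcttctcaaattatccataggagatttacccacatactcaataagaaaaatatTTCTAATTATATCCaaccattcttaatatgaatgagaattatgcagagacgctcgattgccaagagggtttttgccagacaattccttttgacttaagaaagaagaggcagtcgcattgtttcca
Myh1, chr11:67199852-67200101, plus strand: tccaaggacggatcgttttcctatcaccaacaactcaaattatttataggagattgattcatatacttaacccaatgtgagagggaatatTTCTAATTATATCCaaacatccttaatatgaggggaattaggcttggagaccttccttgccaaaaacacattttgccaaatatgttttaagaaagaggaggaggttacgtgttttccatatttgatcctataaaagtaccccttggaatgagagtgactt
Myh4, chr11:67237562-67237811, plus strand: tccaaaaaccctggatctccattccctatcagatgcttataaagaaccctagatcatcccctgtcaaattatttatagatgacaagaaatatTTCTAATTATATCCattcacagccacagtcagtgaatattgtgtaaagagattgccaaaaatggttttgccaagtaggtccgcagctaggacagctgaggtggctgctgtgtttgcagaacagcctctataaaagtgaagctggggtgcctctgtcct
Myh7, chr14:54994550-54994799, minus strand: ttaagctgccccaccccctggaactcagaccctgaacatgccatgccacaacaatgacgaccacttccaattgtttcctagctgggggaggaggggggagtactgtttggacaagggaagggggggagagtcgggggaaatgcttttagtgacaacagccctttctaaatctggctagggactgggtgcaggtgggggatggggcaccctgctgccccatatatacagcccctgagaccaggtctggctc
The capitalised stretch began at -160 in Myh1, -158 in Myh4, -125 in Myh2 and -54 in Myh8, counted from the start of transcription. It was in 4 of 32851 RefSeq promoter windows, those of the 4 genes, and on the other strand of 0 windows. Myh1, Myh4 and Myh8 also held TTATTTATAG, a match to the binding motif of MEF2, the factor family that acts with MyoD proteins in muscle. MEF2 matches were found in 2.92% of all windows on both strands. TATAAA, searched on both strands and present in 12.4% of windows, lay nearest the start at -29 in Myh3, -32 in Myh1 and -31 in Myh4. The TTTATA inside the MEF2 match is TATAAA on the other strand, so the hits overlap. An E-box, CANNTG, was in 66.2% of windows, MCAT (CATTCC, both strands) in 12.6% and CArG, found in Myh4, in 1.47%. Matches describe letters in these windows and show no site in use.

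The rows of close relatives are uncertain. In stretches of 31 bases, 74.2% of the last 500 bases of the Myh7 transcript occurs in another gene (Myh6, the main chain of the adult mouse heart), and so does 32.6% of Myh1, 32.2% of Myh4, 28.6% of Myh2 and 27.8% of Myh8. No such stretch was found in Myh3, Myh10 or Myh14, and 7.4% of Myh9 was shared, with Rab8a. At stretches of 100 bases the share was 65.6% for Myh7, 32.6% for Myh1 and 24.2% for Myh2, and 0% for the others. How the authors counted reads with several alignments is not given in the sources used here. Myh6 itself had 5 to 6 reads in WT myotubes and at most 1 in the other groups. The antisense genes Myhas and 9430073C21Rik overlap Myh1 and Myh2, and the strand setting of the count is not stated. Myhas had 0 reads in all libraries.

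**Figure D1:**
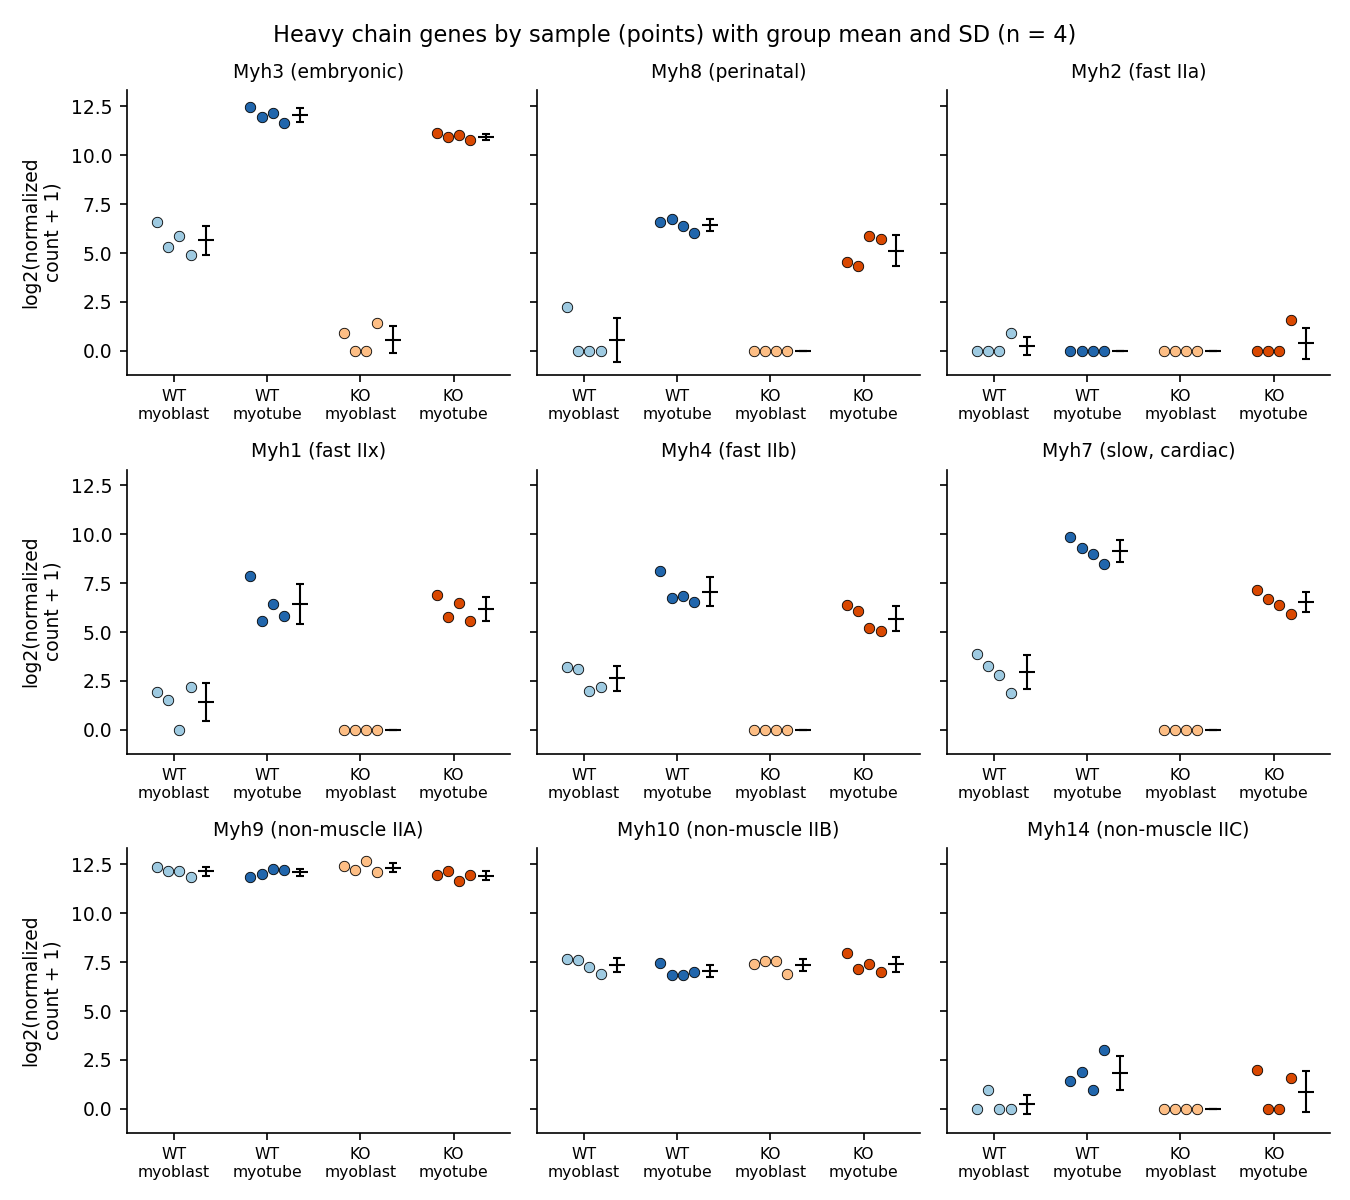
Normalized counts of the 9 heavy chain genes on a log2(count + 1) scale, with each point a sample, WT in blue and Fam134bKO in orange, and the bar giving the group mean and SD (n = 4). Muscle members are near 0 in Fam134bKO myoblasts and high in both myotube groups, apart from Myh2, and the groups overlap for Myh9 and Myh10.

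In WT cells 5 of the 6 muscle heavy chains were higher in myotubes than in myoblasts. Myh3, the embryonic chain, was at 95.96, 38.6, 57.0 and 28.5 normalized counts in the 4 WT myoblast libraries and at 5654, 3913, 4500 and 3199 in the 4 WT myotube libraries. The groups do not overlap, and the log2 fold change was 6.38 (SE 0.32, limma adjusted p = 1.20e-11). Myh7, the slow chain, went from 13.8, 8.68, 6.004 and 2.67 to 916.0, 620.7, 512.1 and 350.7 counts, with a log2 fold change of 6.18 (SE 0.38). The perinatal chain Myh8 was listed with 4, 0, 0 and 0 reads in myoblasts and 108, 119, 90 and 65 in myotubes, and its log2 fold change was 5.88 (SE 0.50).

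Adult fast chains rose as well, at lower levels. Myh4 had 8.30, 7.72, 3.002 and 3.57 normalized counts in WT myoblasts against 280.6, 105.3, 114.3 and 91.1 in WT myotubes (log2 fold change 4.43, SE 0.41). Myh1 had 2.77, 1.93, 0 and 3.57 against 229.7, 46.8, 85.5 and 54.5 (log2 fold change 5.00, SE 0.51). For both, WT myotube replicate 1 stood above the other 3. Myh2, the chain of fast oxidative fibres, had 1 read among the 4 myoblast libraries and 0 among the 4 myotube libraries, so it was not detectable at this depth.

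Altogether 5 of the 7 members that passed the low-count filter were called higher in WT myotubes and 0 lower, where 13.8% of the 10767 tested genes were called higher and 9.16% lower. Apart from Myh3, the muscle members passed the filter through their myotube values alone, so they had to differ. Neither Myh9 nor Myh10 passed the test. Myh9 was at 5296, 4537, 4542 and 3704 counts in myoblasts and 3729, 4148, 4852 and 4676 in myotubes, with overlapping groups (log2 fold change -0.05, 95% interval -0.43 to 0.33). Myh10 was at 200.2, 194.8, 149.1 and 115.9 against 174.4, 113.3, 113.4 and 127.8 (log2 fold change -0.31, 95% interval -0.78 to 0.17). Myh14 never exceeded 7 reads in a library.

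**Figure D2:**
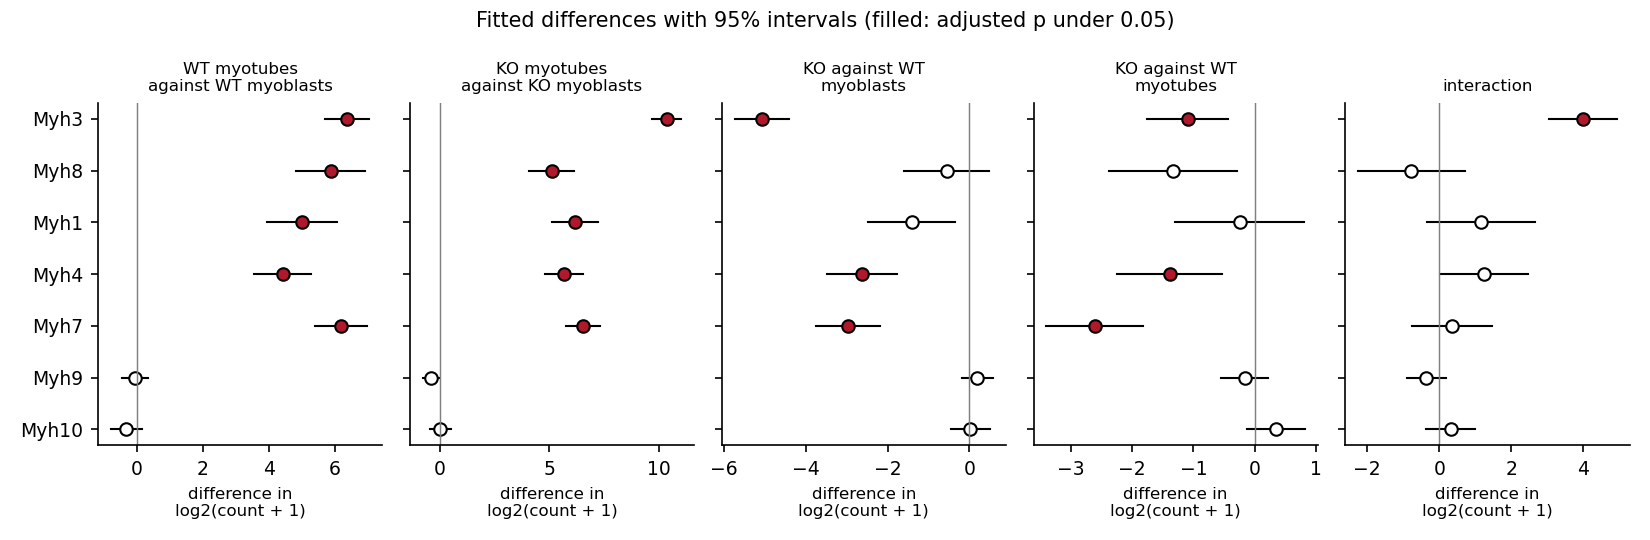
Fitted log2 differences of the 7 tested members for 5 comparisons, with 95% intervals. Filled points passed an adjusted p of 0.05, 5 of them in each differentiation panel and 1, Myh3, in the interaction panel.

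Fam134bKO cells began from almost no muscle heavy chain RNA. Across the 4 Fam134bKO myoblast libraries Myh3 had 1, 0, 0 and 2 reads, and Myh8, Myh1, Myh4, Myh7 and Myh2 had 0 reads in each. In WT myoblasts the same genes had 233, 4, 9, 24, 33 and 1 reads summed over libraries. Myh3 was lower in Fam134bKO myoblasts (log2 fold change -5.08, SE 0.32, limma adjusted p = 9.60e-11), at a ratio of 0.0116 with a counting interval of 0.00238 to 0.0344. Myh4 and Myh7 also passed, at fitted log2 fold changes of -2.63 and -2.96, which depend on the count of 1 added before taking logs. Against the limit of 3 reads per library Myh4 was at least 2.21-fold lower and Myh7 at least 3.05-fold lower. Myh1 (-1.41, adjusted p = 0.0646) and Myh8 (-0.56, adjusted p = 0.530) did not pass. Of the 7 tested, 3 were called lower and 0 higher, against 8.50% and 7.26% of all tested genes. Myog, an activator of muscle genes, had 0 reads in the 4 libraries and 92 to 161 in WT myoblasts, and its part in the result was not tested.

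Fam134bKO myotubes nonetheless held muscle heavy chains. Myh3 reached 2207, 1949, 2065 and 1718 normalized counts, and the ratio to knockout myoblasts was 3185 (counting interval 1089 to 15447, from 3 reads). Its log2 fold change was 10.37 (SE 0.32). Myh1 was at 116.2, 52.5, 89.1 and 46.0 counts, Myh4 at 81.3, 67.1, 36.0 and 32.0, Myh7 at 138.4, 102.1, 83.7 and 59.9 and Myh8 at 22.3, 19.0, 56.7 and 52.0. Set against the limit of 3 reads per library, they rose at least 29.7-fold, 21.2-fold, 37.6-fold and 14.7-fold. All 5 were called, with 17.3% of tested genes called higher and 16.1% lower, and 0 members were called lower. Apart from Myh3, these members passed the low-count filter through their myotube values alone. They therefore had to differ, and their count is not read against those shares. Myh2 had 1 read in Fam134bKO myotube replicate 4. Myh9 moved from 5416, 4680, 6377 and 4314 to 3996, 4490, 3136 and 3932 counts (log2 fold change -0.41, adjusted p = 0.0878), with Myh10 at 0.01 (95% interval -0.46 to 0.49).

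The interaction compares the 2 rises. The rise of Myh3 was larger in Fam134bKO cells by 3.99 on the log2 scale (SE 0.45, limma adjusted p = 6.91e-06), the 1 member called of 7, against 1.97% of tested genes called higher and 1.48% lower. Its fitted size rests on a myoblast group at 0 to 2 reads, and the myotubes themselves held less Myh3 than WT myotubes. The difference was 2.20 with a pseudocount of 5 and 4.66 with 0.5, and stayed called. For the other members the interaction was 1.16 (Myh1), 1.25 (Myh4), 0.35 (Myh7), -0.77 (Myh8), -0.36 (Myh9) and 0.32 (Myh10), with adjusted p of 0.270 to 0.783. These comparisons share their groups with those above.

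Set side by side, Fam134bKO myotubes had lower counts of Myh3, Myh4 and Myh7 than WT myotubes. Myh7 fell most in the fit, from 350.7 to 916.0 counts in WT to 59.9 to 138.4, with no overlap, a log2 fold change of -2.61 (SE 0.38, limma adjusted p = 4.19e-05). Myh3 was lower at -1.10 (SE 0.32, adjusted p = 0.0166), also with no overlap (1718 to 2207 against 3199 to 5654). Myh4 was lower at -1.38 (SE 0.41, adjusted p = 0.0186), with 32.0 to 81.3 counts against 91.1 to 280.6. Myh8 (-1.33, adjusted p = 0.0592) and Myh1 (-0.25, adjusted p = 0.768) did not pass. In a differentiation time course the paper reports more Myh1 and Myog mRNA by real-time PCR in Fam134bKO cells. Neither of these genes was called here between myotubes, with Myog at -0.51 (limma adjusted p = 0.0892). The paper also reports more myosin heavy chain protein in Fam134bKO cells, where it appeared later than in WT cells. Those are other assays, and what sets them apart from these counts was not tested. Of 7 members, 3 were called lower and 0 higher, beside 13.7% and 9.74% of tested genes. Without WT myotube replicate 1 the Myh3 and Myh4 calls were lost (adjusted p = 0.0534 and 0.0837), and without the pair of shallow Fam134bKO myotube libraries also (0.0853 and 0.0644), so that 1 member stayed called. Myh4 was lost also without Fam134bKO myotube replicate 3 or replicate 4 (adjusted p = 0.0545 and 0.0559). The non-muscle chains did not pass, Myh9 at -0.17 (95% interval -0.55 to 0.22) and Myh10 at 0.34 (-0.14 to 0.82).

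**Figure D3:**
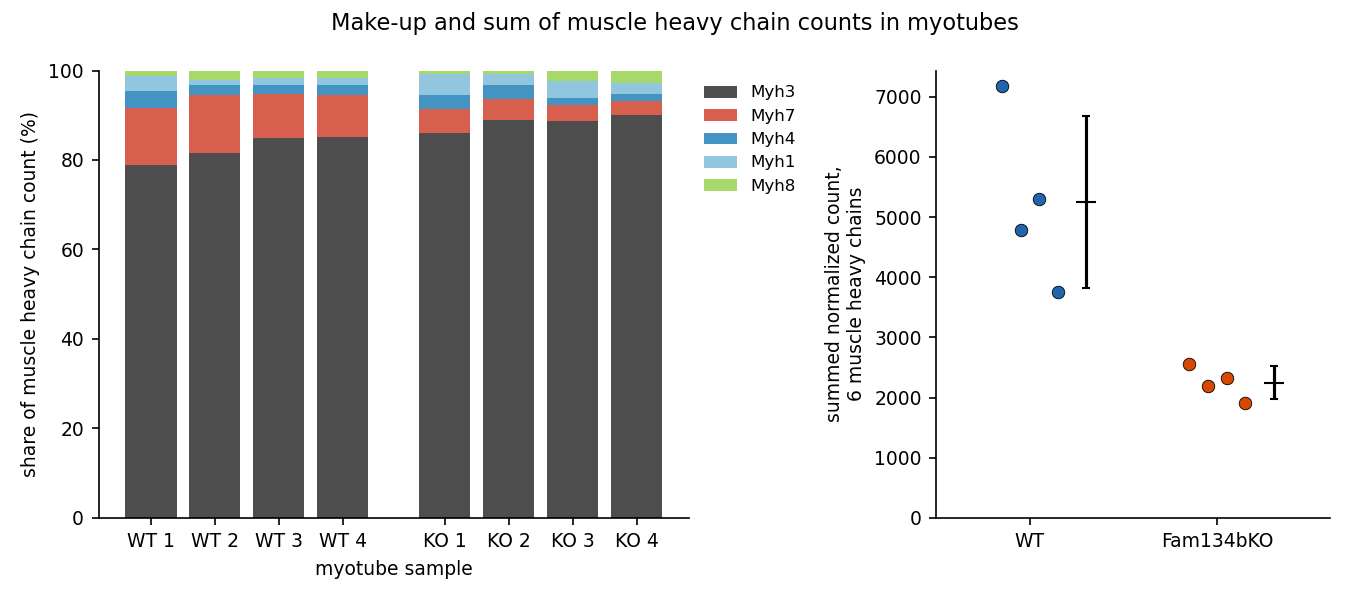
Left, share of each gene in the summed muscle heavy chain count of the 8 myotube samples, in percent, where Myh3 fills most of every bar. Right, the sum itself in normalized counts, with mean and SD (n = 4), which in the Fam134bKO samples sits below all WT samples.

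The make-up of the muscle heavy chain pool was compared as each gene's share of the summed counts of the 6 muscle genes, whose transcripts are 6016 to 6230 bases long. Myh3 took 78.8, 81.6, 85.0 and 85.1% in WT myotubes and 86.0, 89.0, 88.6 and 90.0% in Fam134bKO myotubes. Myh7 took 12.8, 12.95, 9.67 and 9.33% in WT and 5.40, 4.66, 3.59 and 3.14% in Fam134bKO. For both the groups did not overlap, with differences of 5.77 and -6.98 percentage points and an exact two-sided permutation p of 0.0286, the smallest that 4 against 4 allows, or 0.0857 adjusted over the 9 tests. The adult fast share was 4.48% ± 1.78 (SD, n = 4) in WT and 5.68% ± 1.47 in Fam134bKO myotubes (exact permutation p = 0.343). That difference of 1.20 points was 2.07 without WT myotube replicate 1, 2.05 without the shallow libraries, 0.76 without WT myotube replicate 2 and 0.52 without Fam134bKO myotube replicate 1. The Myh8 share was 1.71% ± 0.39 and 1.72% ± 0.99 (exact permutation p = 0.943). The sum of the 6 genes was 3760 to 7174 counts in WT and 1910 to 2566 in Fam134bKO myotubes, a difference of -1.19 between the mean log2 sums, with the same exact p of 0.0286 and adjusted 0.0857.

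**Figure D4:**
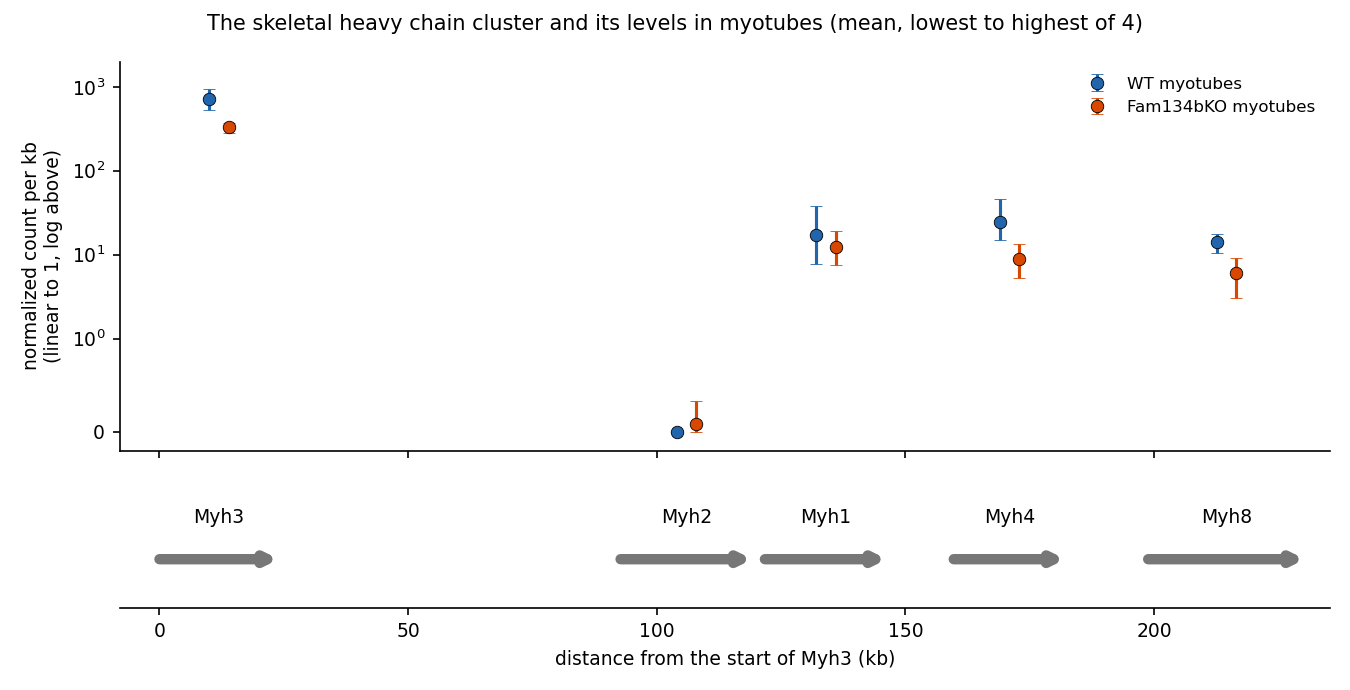
Normalized counts per kb of transcript in myotubes along the chromosome 11 cluster, with points for group means and lines from the lowest to the highest of 4 samples. Arrows show the 5 genes by distance from the start of Myh3 in kb, and Myh2, next to Myh1, sits at or near 0.

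Levels of genes of unlike length were set side by side per kb of transcript, although counts of digital mRNA-seq need not scale with length. In WT myotubes Myh3 had a mean of 715.7 and Myh9 of 585.4 normalized counts per kb, with overlapping ranges, and without the division Myh9 (4351 counts) and Myh3 (4317) were close. Myh7 came next at 96.3 counts per kb, apart from both neighbours. Myh4 (24.6), Myh1 (17.1), Myh10 (16.97) and Myh8 (14.2) overlapped one another. In Fam134bKO myotubes Myh9 (523.1) stood above Myh3 (329.1) without overlap, and Myh10 (21.9), Myh7 (15.4) and Myh1 (12.5) overlapped. Myh4 (8.99) overlapped Myh7 and Myh1, and Myh8 (6.09) overlapped Myh1 and Myh4. In WT and Fam134bKO myoblasts Myh9 (608.1 and 699.1) and Myh10 (21.2 and 21.4) stood above Myh3 (9.12 and 0.105) and the other muscle members. The ranges of Myh10 and Myh3 just overlap in WT myoblasts, at 14.9 to 25.7 and 4.73 to 15.9, and not in Fam134bKO myoblasts. The neighbours Myh2 and Myh1, whose starts lie 92.7 and 121.8 kb from that of Myh3, were unlike in level, Myh2 at 0 and 0.082 counts per kb and Myh1 at 17.1 and 12.5 in WT and Fam134bKO myotubes.

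**Figure D5:**
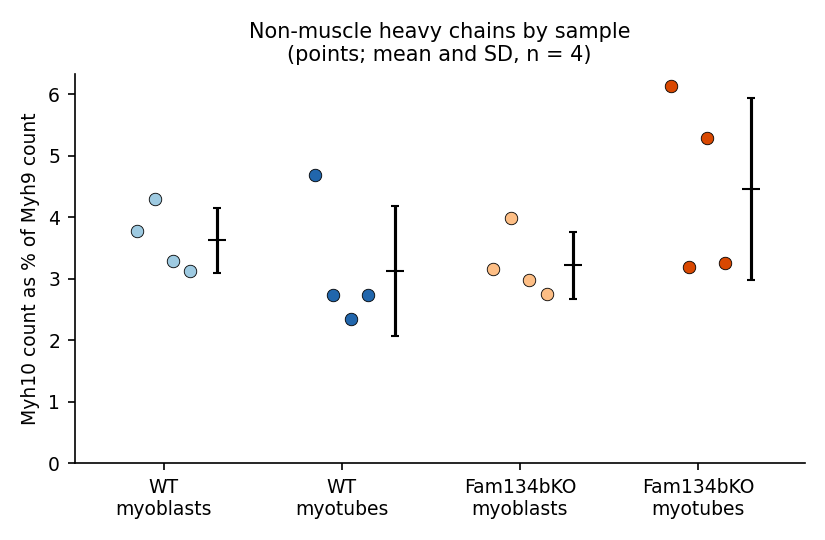
Myh10 count as a percentage of the Myh9 count in each of the 16 samples, with group mean and SD (n = 4). Values run from 2.34 to 6.13%, both ends being myotube samples, and the myoblast samples lie from 2.75 to 4.29%.

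Myh9 carried nearly all non-muscle heavy chain counts in every group. Myh10 equalled 3.78, 4.29, 3.28 and 3.13% of the Myh9 count in WT myoblasts and 4.68, 2.73, 2.34 and 2.73% in WT myotubes. In Fam134bKO cells it was 3.15, 3.99, 2.98 and 2.75% in myoblasts and 6.13, 3.18, 5.28 and 3.25% in myotubes. The log2 ratio differed by -0.26 and 0.43 between myotubes and myoblasts of WT and Fam134bKO, and by -0.17 and 0.51 between the genotypes in myoblasts and myotubes. Exact permutation p was 0.171 to 0.343, adjusted 0.309 to 0.386, and none passed the test. The differences of 0.43 and 0.51 are slightly above the pooled SD between samples (0.38 and 0.46). Without the shallow Fam134bKO myotube libraries the difference between myotubes was 0.92 and that of Fam134bKO differentiation 0.84.

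Genes that work with the heavy chains were counted by list. The sarcomeric light chains, which sit on the necks of muscle heavy chains, had 4 of 7 genes tested, and 4 of 4 were called higher in both differentiation comparisons, lower in Fam134bKO myoblasts and lower in Fam134bKO myotubes. The median log2 fold changes were 3.46 (WT) and 7.32 (Fam134bKO) for differentiation and -4.23 and -1.61 for genotype in myoblasts and myotubes, where the medians of all tested genes were -0.01, -0.02, -0.01 and -0.07. Over all tested genes 13.8% and 17.3% were called higher on WT and Fam134bKO differentiation, and 8.50% and 13.7% lower in Fam134bKO myoblasts and myotubes. Mylpf, the fast regulatory light chain, had log2 fold changes of 3.45, 9.09, -7.31 and -1.66 in the same order. Like Myh3, these 4 genes were called higher in the interaction, Mylpf at 5.64, beside 1.97% of tested genes called higher and 1.48% lower. As for Myh3, the fitted size for Mylpf rests on a low Fam134bKO myoblast group, at 4 to 9 reads per library. Non-muscle light chains fell in part on differentiation, with 2 of 4 (Myl9 and Myl6) called lower in both lines, where 9.16% (WT) and 16.1% (Fam134bKO) of all tested genes were lower, and 0 of 4 called by limma between genotypes (0 also at an unadjusted p under 0.05). In Fam134bKO differentiation the count was 4 without myotube replicate 3, and 1 without myotube replicate 1 or 2 or without myoblast replicate 4.

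Thick filament and M-band genes, which hold myosin in register, had 7 of 11 tested. Of these, 7 rose in both lines on differentiation, beside 13.8% (WT) and 17.3% (Fam134bKO) of all tested genes. In Fam134bKO cells 5 of 7 were lower in myoblasts, with Ttn, the giant spring protein titin, at -5.93, and 5 of 7 were lower in myotubes, with Mybph, a myosin-binding protein, at -1.40, beside 8.50% and 13.7% of all tested genes. The myotube count was 3 without WT myotube replicate 3. Myosin folding and assembly genes had 8 of 8 tested, of which 4 rose and 1 fell on differentiation in each line, with 13.8% and 9.16% of all tested genes higher and lower in WT and 17.3% and 16.1% in Fam134bKO cells. The 1 that fell was Hsp90aa1, an HSP90 chaperone, at -1.40 in WT and -1.20 in Fam134bKO cells. In Fam134bKO myoblasts 5 of 8 were lower and 0 higher, beside 8.50% and 7.26% of all tested genes. There 6 of the 8 genes had a read, and fitted sizes for genes without a read depend on the count of 1 added. Unc45b, a chaperone for the myosin head, rose by 4.31 in WT and 6.15 in Fam134bKO cells, and Smyd1, its partner in thick filament assembly, by 2.28 and 5.49. The interaction passed for Smyd1 (3.21, adjusted p = 7.18e-05) and not for Unc45b (1.84, adjusted p = 0.146). In Fam134bKO against WT myotubes 4 of 8 were lower and 1 higher, beside 13.7% and 9.74% of all tested genes. Lowest were Trim55 at -2.87, Trim54 at -2.17 and Smyd1 at -1.72. The 1 higher was Hsp90ab1 at 0.51, a gene named after its value was seen.

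Of 21 tested factors that act on these genes, 8 rose and 1 fell on WT differentiation, and 9 rose and 2 fell in Fam134bKO cells, beside 13.8% and 9.16%, and 17.3% and 16.1%, of all tested genes. Mef2c rose by 3.36 and 4.15, and Myog by 3.23 and 9.54. Fam134bKO myoblasts had 11 of 21 lower and 0 higher, with Myog at -6.82 and Myod1, the master muscle factor, at -4.81, and myotubes 10 lower and 3 higher, beside 8.50% and 7.26%, and 13.7% and 9.74%, of all tested genes. Among genes of non-muscle myosin control, such as those of the myosin phosphatase, 1 of 19 was lower in Fam134bKO myoblasts (Ect2), and in myotubes 4 of 19 were lower and 1 higher (Rhob), counts near the shares of all tested genes (8.50% lower in myoblasts, 13.7% lower and 9.74% higher in myotubes). Of 10 tested class I, V and related myosins, 1 and 2 were lower in the same comparisons and 0 higher, again near those shares, and the 2 became 0 without WT myotube replicate 2, 3 or 4 or without Fam134bKO myotube replicate 3 or 4, and 1 without WT myotube replicate 1.

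By Pearson correlation of log2 values over the 16 samples, which lie in 4 groups and so share their main contrasts, each tested member was matched to its closest genes. Myh3 was closest to Atp2a1, the fast muscle calcium pump (r = 0.994), Mybph and Actc1. Myh4 and Myh7 were each other's closest gene (r = 0.990), although they lie on different chromosomes. Myh8 was closest to Hrc (r = 0.972) and Myh1 to Otog (r = 0.972). Non-muscle Myh9 was closest to Skiv2l (r = 0.890) and Myh10 to Actn4, a non-muscle actin crosslinker (r = 0.780). Between Myh9 and the 5 tested muscle members r was -0.57 to -0.44.

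Myh7b, a class II chain that is no member, had 45, 14, 29 and 17 reads in WT myotubes and 15, 0, 1 and 0 in Fam134bKO myotubes, and it passed the low-count filter only through WT myotubes, so its fold change is not read as a result.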

How the data were processed

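RNA from 16 C2C12 samples, 4 per group, was sequenced as single-end digital mRNA-seq. Per the labels and methods, the authors trimmed reads, aligned them with STAR 2.6.0a to mm10 and counted genes with HTSeq, and the deposited table holds log2 values of normalized counts plus 1. The normalization tool is not given in the sources used here. Here each value was turned back (2 to the power of the value, minus 1), and within each library 100% of values above 0 were whole multiples of 1 step (tolerance 0.02), which gave the reads. Because the deposited unit is log2, tests used limma 3.58.1 in R 4.3.3 with 4 group means over all 16 samples, a mean-variance trend and Benjamini-Hochberg adjustment at 0.05, on the 10767 genes with at least 10 normalized counts in at least 4 samples. Fold changes are on the log2(count + 1) scale and understate those of low genes. The fit was tested on simulated data. Shares and ratios were tested by exact permutation (SciPy), adjusted over 9 tests. Genes named from lists were up to 3 per list and comparison with the largest change among those called, with all 9 members, Fam134b and the 3 genes most like each member. Members and lists were chosen with earlier results of these data known. Myh7b, Myh6 and the antisense genes were added as related or overlapping rows. Alternatives were other pseudocounts, filters, scalings, thresholds, sample sets, sample weights, a replicate block and each sample left out.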

Additional observations from a re-analysis of the deposited data

Results flagged for a closer look

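The rise of Myh3 on differentiation differed between the lines, being 3.99 larger on the log2 scale in Fam134bKO than in WT cells by a test of the difference itself (limma, adjusted p = 6.91e-06). Myh3 was lower in the Fam134bKO libraries than in the WT libraries at both stages, with no overlap in either, and its Fam134bKO myoblast libraries held 0 to 2 reads.

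Myh8 in WT myoblasts had 4 reads in replicate 1 and 0 in the other 3, so the gap of the highest sample to the next was 1 time the whole range of the group. With 3 samples at 0 the gap equals the range by construction. Of 41 groups of 4 values examined for a far sample this was the 1 found, and chance flags about 1 in 20 groups.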

How the results depend on the processing

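For the 7 tested members in 5 comparisons, the calls of higher muscle members on differentiation kept their direction and passed under all settings tried. Apart from Myh3, these members passed the low-count filter through their myotube values alone and had to differ. Their stability is therefore not read as support. Counts of called members went from 5 to at most 6 for either differentiation and from 3 to at most 4 between myoblasts. For Fam134bKO against WT myotubes they were 3 as reported, 1 with sample weights, 1 at an adjusted p under 0.01 and 1 without the 2 shallow Fam134bKO myotube libraries (chosen after seeing the data), and 1 to 3 on leaving out single samples, with 1 without WT myotube replicate 1, and 4 with a pseudocount of 5, quantile normalization or the samples compared alone. The cause was not tested. Myh7 stayed called in all of these. With sample weights Myh3 and Myh4 were at adjusted p of 0.101 and 0.0534. Myh8 in the same comparison passed with a pseudocount of 5 (adjusted p = 0.00496), quantile normalization (0.0372) the samples compared alone (0.0218), or without Fam134bKO myotube replicate 3 (0.0423) or 4 (0.0459). Myh1 between myoblasts passed with a pseudocount of 0.5 (adjusted p = 0.0260), the samples compared alone (0.0446), sample weights (0.0187), without the shallow libraries (0.0415) or without WT myoblast replicate 3 (0.0111).

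Only members that were not called changed sign. With a pseudocount of 5 the interaction was -0.26 for Myh4 and -1.28 for Myh7, and with quantile normalization -0.65 for Myh7. In Fam134bKO differentiation Myh10 was at -0.042 with total scaling and -0.044 with quantile normalization, and -0.18 to 0.13 leaving out samples. Between myoblasts Myh8 was at 0.32 with quantile normalization, and Myh10 at -0.14 to 0.18 leaving out samples. WT differentiation of Myh9 was 0.018 with sample weights and -0.14 to 0.029 leaving out samples. Between myotubes Myh1 was at 0.23 with sample weights, 0.27 without the shallow libraries and -0.53 to 0.23 leaving out samples. The difference in Myh8 share was -0.056 points without the shallow libraries and -0.32 to 0.30 leaving out samples, and the Myh10 to Myh9 difference in Fam134bKO differentiation 0.84 without them. With total scaling or sample weights Myh9 passed in Fam134bKO differentiation (adjusted p = 0.0499 and 0.0301).

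Over all genes, calls in the order of the comparisons above were 2474, 3591, 1697, 2521 and 371, and 1269, 2216, 1041, 1349 and 141 at an adjusted p under 0.01. Requiring also an absolute log2 change of 1, the first 4 were 1259, 1994, 1018 and 1379. Sample weights gave 4683 for WT differentiation, 3773 between myoblasts and 1221 for the interaction, and fitting only the samples compared gave 2656 between myoblasts and 1565 between myotubes. Without WT myotube replicate 1 WT differentiation gave 1564. Higher calls were 60.1% of WT differentiation calls, 49.7% with quantile normalization and 75.0% with the added limit on size.

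The replicate numbers did not pair the samples: over 24 same-numbered pairs the correlation of deviations averaged 0.033 (-0.22 to 0.37), 10 above 0.1. A replicate block left the counts of called members at 5, 5, 3, 3 and 1, and gave 2495, 3628, 1678, 2513 and 358 calls over all genes. Depth limits Myh2, Myh14 and the muscle members of Fam134bKO myoblasts, which sat at or under 3 reads per library except for Myh14 in WT myotubes.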
